A study of Mus musculus with 8 samples.

Results

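Protein phosphatase 1 (PP1) is a serine/threonine phosphatase whose transcripts were followed here in the hippocampus of 3 × Tg-AD mice through 9 genes. They are the catalytic subunits Ppp1ca, Ppp1cb and Ppp1cc, the inhibitors Ppp1r1a and Ppp1r2, the spine-targeting subunits Ppp1r9a and Ppp1r9b, the myosin-targeting subunit Ppp1r12a and the glycogen-targeting subunit Ppp1r3c. Every probe set whose platform symbol is exactly one of these names was taken, which gave 23 of the 45037 probe sets and 8 of the 9 genes. No probe set used here names Ppp1r9b alone, so that gene is not analysed here. The set was chosen by its values in these same arrays, around Ppp1cb, whose lower level in the RA group was already known. Differences between the groups are therefore given as a description, and no exact p-value is printed for the group difference of a single probe set. Counts under a p threshold are also only a description.

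The RA group was fed a diet supplemented with 0.5% rosmarinic acid (RA), a polyphenol of Lamiaceae herbs, for 8 months, and the control group received the AIN-93G diet without RA. All mice were male, were 10 months old, and carried the 3 transgenes of this strain, the Swe form of amyloid precursor protein, tau P301L and presenilin 1 M146V, so that no group lacks the transgenes. Each group is represented by 4 Affymetrix mouse genome arrays, named here RA 1 to RA 4 and control 1 to control 4. The methods speak of 4 mice with an average weight per group and also of pooled RNA, so it is not settled whether an array stands for 1 mouse, and the spread between arrays may be partly technical.

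PP1 catalytic subunits act in the cell only as complexes with regulatory subunits, which choose the substrate and the place. In hippocampal neurons the enzyme dephosphorylates synaptic proteins such as CaMKII and glutamate receptors, and it is known as a brake on long-term potentiation. Tau is also one of its substrates. Inhibitor-1, the product of Ppp1r1a, blocks the enzyme once protein kinase A has phosphorylated it, and neurabin and spinophilin hold the enzyme in dendritic spines.

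The values are log2 summaries of probe sets, each a group of short probes against a transcript. They were computed with FARMS, a factor analysis under which a probe set settles near a constant when its probes have no signal in common. In 91.7% of all probe sets the arrays had an SD of no more than 0.01, and a probe set of that kind was marked as unmeasured; the others are said here to vary. Among the PP1 probe sets, 7 were measured and 16 were not. The measured probe sets belong to Ppp1cb (3 of 4), Ppp1cc (2 of 2) and Ppp1r3c (2 of 2). The PP1 probe set just inside the limit was 1433691_at of Ppp1r3c with an SD of 0.125, and the one just outside was 1431328_at of Ppp1cb with an SD of 0.00361. Array medians lay at 5.833 to 5.835 in the RA group and 5.829 to 5.831 in the control group, and 73.1% of varying probe sets were higher on average in RA arrays.

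Ppp1cb encodes the beta catalytic subunit, the one that joins Ppp1r12a in myosin phosphatase. All of its measured probe sets lay lower in the RA group, at 0.526 to 0.570 times the control level. Probe set 1426205_at had log2 values of 10.17, 9.46, 10.09 and 9.59 in RA 1 to RA 4, against 10.34, 10.87, 10.95 and 10.39 in control 1 to control 4. Every RA array was below every control array, and the gap between the highest RA array and the lowest control array was 0.18. The mean was 9.83 ± 0.354 in the RA group and 10.64 ± 0.316 in the control group (SD, n = 4 each), a log2 fold change of -0.81 (RA minus control) with a standard error of 0.227 from limma.

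The other measured probe sets of Ppp1cb carry the suffix x, which the manufacturer gives to sets with probes that may also match other transcripts. Probe set 1433540_x_at stood at 9.70, 9.10, 9.65 and 9.11 in RA 1 to RA 4, against 9.81, 10.56, 10.75 and 10.15 in control 1 to control 4. RA 2 and RA 4 were the lowest arrays, control 1 lay only 0.105 above RA 1, and the groups did not overlap. The log2 fold change was -0.93 (standard error 0.257). Probe set 1456462_x_at stood at 7.54, 7.36, 7.50 and 7.38 in RA 1 to RA 4, against 7.72, 8.64, 8.69 and 8.05 in control 1 to control 4. Here the RA arrays were close together, with an SD of 0.0879, while the control arrays spread widely, with an SD of 0.469 (n = 4 each), and the groups did not overlap. The log2 fold change was -0.83 (standard error 0.229). The remaining probe set of Ppp1cb, 1431328_at, kept between 7.0406 and 7.0467 in the RA group and between 7.0409 and 7.0513 in the control group and counts as unmeasured. It therefore neither repeats nor contradicts the other 3.

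**Figure D1:**
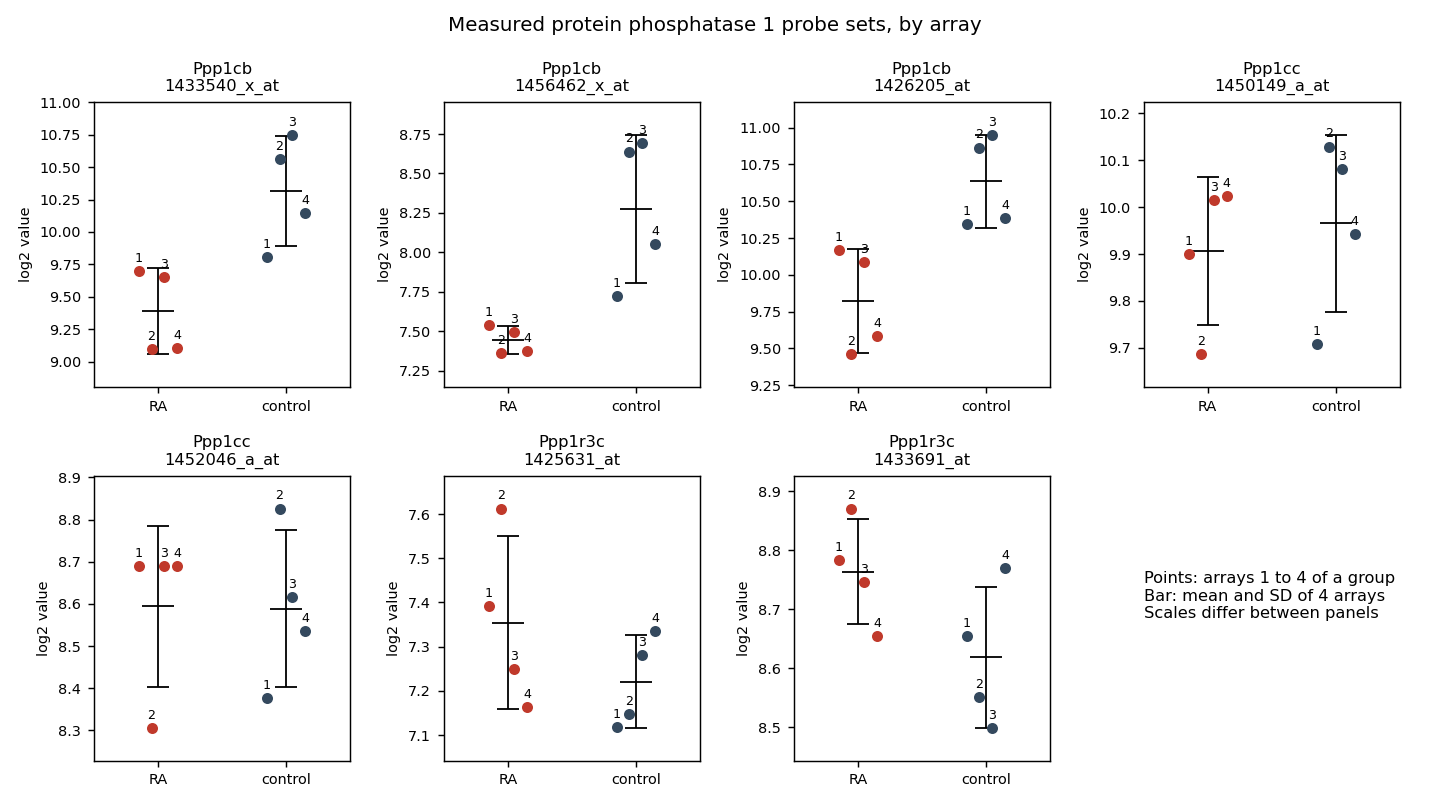
Log2 values of the 7 measured PP1 probe sets (vertical axes, scales differ) in RA arrays (left, red) and control arrays (right, dark blue); points are arrays 1 to 4, and bars give the mean and SD of 4 arrays. In the 3 Ppp1cb panels every RA array lies below every control array, and in the 4 panels of Ppp1cc and Ppp1r3c the groups overlap.

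Over all 45037 probe sets, the 3 measured Ppp1cb probe sets held ranks 2, 3 and 4 when log2 fold changes were ordered from the lowest, behind a probe set of the RNA helicase gene Ddx5 (1454793_x_at, -1.17). The rank product, which the study's methods used, orders the differences between all pairs of arrays. At an expected share of false positives below 0.05, it called these 3 of the 23 PP1 probe sets lower in the RA group. It called 0.577% of all probe sets lower. None of the 23 was called higher, where 0.888% of all probe sets were. Groups that lay fully apart with RA below control were found in 3 of the 7 measured PP1 probe sets, beside 2.87% of all varying ones, and with RA above control in 0 of the 7, beside 2.71%. limma called 0 of all probe sets at an adjusted p under 0.05. An unadjusted p under 0.05 was found for 4 of the 23, beside 10.1% of all. The 4 were the 3 measured probe sets of Ppp1cb and 1437735_at of Ppp1r12a. The latter is unmeasured (SD 0.000158, log2 fold change -0.000223). Since Ppp1cb was chosen for this contrast, nothing is read from these counts.

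Of 202 genes with a probe set called lower, 2 had at least 3 such probe sets (0.99%), namely Ppp1cb with 3 of 4 and Serinc3, a serine incorporator, with 3 of 6. Among these 202 genes, 178 have several probe sets, and at least 2 were called lower in 16 of the 178 (8.99%).

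The 3 measured probe sets of Ppp1cb ordered the 8 arrays identically. From the lowest, the order was RA 2, RA 4, RA 3, RA 1, control 1, control 4, control 2 and control 3. Spearman's rho was 1 for each of the 3 pairs. Pearson's r was 0.986 between 1433540_x_at and 1426205_at, 0.959 between both x sets and 0.924 between 1456462_x_at and 1426205_at. These values hold the difference between the groups for which Ppp1cb was chosen, so no p is given. With the 2 arrays farthest from the median left out, control 2 and control 3, r was 0.966, 0.913 and 0.822 for the same pairs. With the group means taken out it was 0.958, 0.878 and 0.772. The probe sets thus also followed each other among arrays of one group, and whether they share probed sequence is not known here. This was not particular to Ppp1cb. By the same measure, probe sets of Acbd5, Gnaq, Rufy3, Impa1 and Mef2a followed 1433540_x_at more closely, with r from 0.977 to 0.983.

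With any 1 array left out Ppp1cb had to stay lower, since every RA array lay below every control array, so only the size could change. With each array left out in turn, the difference between the groups (log2) lay from -0.92 to -0.69 for 1426205_at, from -1.10 to -0.78 for 1433540_x_at and from -1.02 to -0.70 for 1456462_x_at, and the rank product called all 3 in each of these 8 fits. When the test was limited to the 3758 varying probe sets, it called 17 of them lower (0.452%), and all 3 probe sets of Ppp1cb were among them. Ppp1cb was chosen for its values in these arrays, so these repeated calls are a description.

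**Figure D2:**
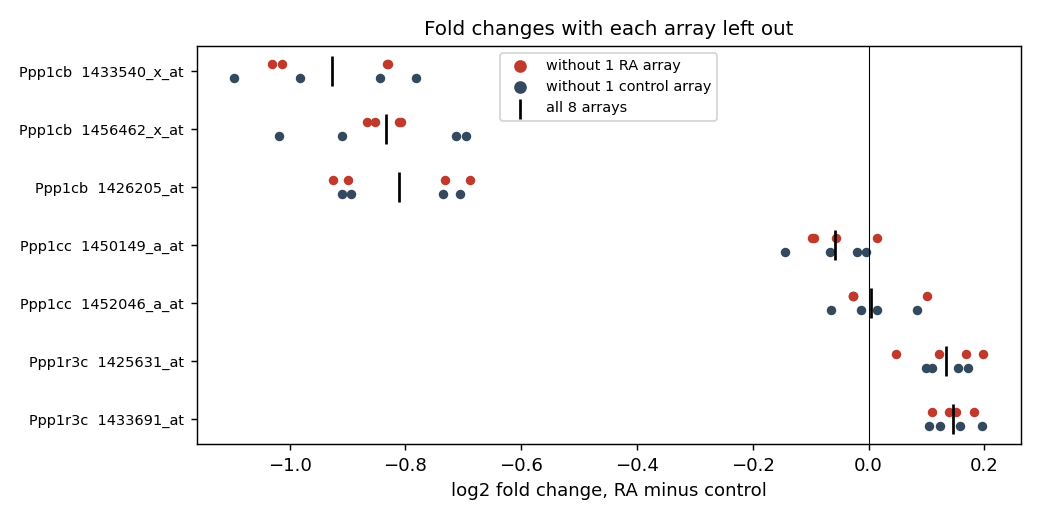
Log2 fold change (RA minus control, horizontal axis) of the 7 measured PP1 probe sets with 1 RA array left out (red points), with 1 control array left out (dark blue points) and with all 8 arrays (black bars). The Ppp1cb points stay between -1.10 and -0.69, those of Ppp1cc lie on both sides of 0, and those of Ppp1r3c lie between 0.048 and 0.20.

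Ppp1cc encodes the gamma catalytic subunit, which is enriched in dendritic spines. Neither of its probe sets was called. Probe set 1450149_a_at stood at 9.90, 9.69, 10.02 and 10.02 in RA 1 to RA 4, against 9.71, 10.13, 10.08 and 9.94 in control 1 to control 4, a log2 fold change of -0.06 (standard error 0.118). Probe set 1452046_a_at stood at 8.69, 8.31, 8.69 and 8.69 in RA 1 to RA 4, against 8.38, 8.83, 8.62 and 8.54 in control 1 to control 4, a log2 fold change of 0.00483 (standard error 0.128). In both the groups overlapped, RA 2 was the lowest array and control 1 the next. Both probe sets had r = 0.903 and rho = 0.762 over the 8 arrays (exact permutation test, 2-sided p = 0.00424 and 0.0368, 0.0053 and 0.0458 after Benjamini-Hochberg adjustment over the 5 pairs of measured probe sets of a gene). These 5 include the 3 pairs of Ppp1cb, a gene chosen for this contrast, and their low p eases the adjustment for r. Without RA 2 and control 1, the arrays farthest from the median, r was 0.537, so the relation rests largely on these arrays. The sign of the fold change was not stable for either probe set, with a log2 value of 0.0148 for 1450149_a_at without RA 2, and of -0.0009 for 1452046_a_at under quantile normalization.

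RA 2 and control 1 were also the lowest arrays of their groups in the means of the pyramidal neuron, granule cell and oligodendrocyte marker lists. Over the 9 varying probe sets of 7 of 8 pyramidal neuron markers, the mean log2 value was 7.64 in RA 2 and 8.13 to 8.31 in the other RA arrays, against 7.75 in control 1 and 8.15 to 8.40 in the other control arrays. Over 8 varying probe sets of 5 of 6 dentate granule cell markers it ran from 6.26 to 7.09 in the RA group and from 6.32 to 7.21 in the control group. Over 16 varying probe sets of 5 of 6 oligodendrocyte markers it ran from 8.45 to 9.73 in the RA group and from 8.60 to 9.85 in the control group. RA 2 and control 1 held the low end of each range. Single markers could differ, and control 1 was the highest control array for Wfs1, Mpped1, Calb1 and C1ql2. Calb1 and this Mbp probe set were also highest in RA 2 among RA arrays, while the other varying Mbp probe sets were lowest in RA 2 and control 1. The interneuron list had its lowest means in RA 1 (8.67) and control 3 (8.46). The choroid plexus list was also lowest in RA 2 (6.11) and control 1 (6.29). Its means reached 9.29 in RA 4 and 9.51 in control 3. Of that list 8 of 8 genes were called higher, with groups that overlapped, beside 306 of all 18193. All 8 genes of the list varied, beside 2496 of all 18193, so the share over all genes is not a like comparison. In such bulk tissue fewer cells of a type and less RNA per cell cannot be told apart. The part of these markers in the values of Ppp1cc was not tested.

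Ppp1cb was like the means of the pyramidal neuron, granule cell and oligodendrocyte lists in some arrays and unlike them in others. RA 2 and control 1 were the lowest arrays of their groups for all 3 measured probe sets of Ppp1cb too, and the control arrays followed the order of the granule cell list, from the lowest control 1, control 4, control 2 and control 3. RA 4 was the second lowest array for Ppp1cb, at 9.59 on 1426205_at. In the means of these 3 lists it was the highest RA array, at 8.31, 7.09 and 9.73. For the single markers Calb1 (9.85) and Wfs1 (8.37) it was the lowest RA array.

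Between the groups, markers of different neurons went different ways. The median log2 fold change of varying probe sets was -0.09 over the pyramidal list, where 1 of 8 genes, Neurod6, was called lower, and -0.15 over the granule cell list, where 2 of 6, Dsp and Lct, were, beside 202 of all 18193 genes. It was 0.12 over the interneuron list, where none of 7 genes was called, and 0.30 over the list of thalamic neurons, where 5 of 6 genes were called higher, beside 306 of all genes. Genes with a varying probe set were 7 of 8 in the pyramidal list and 5 of 6 in the granule cell list. They were 5 of 7 in the interneuron list and 5 of 6 in the thalamic list, beside 2496 of all 18193. The shares over all genes are therefore not a like comparison. Within the pyramidal list Bok (0.08) and Mpped1 (0.10) had positive values, and none of the 9 varying probe sets of that list had groups that lay apart. The part of these markers in the values of Ppp1cb was not tested.

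**Figure D3:**
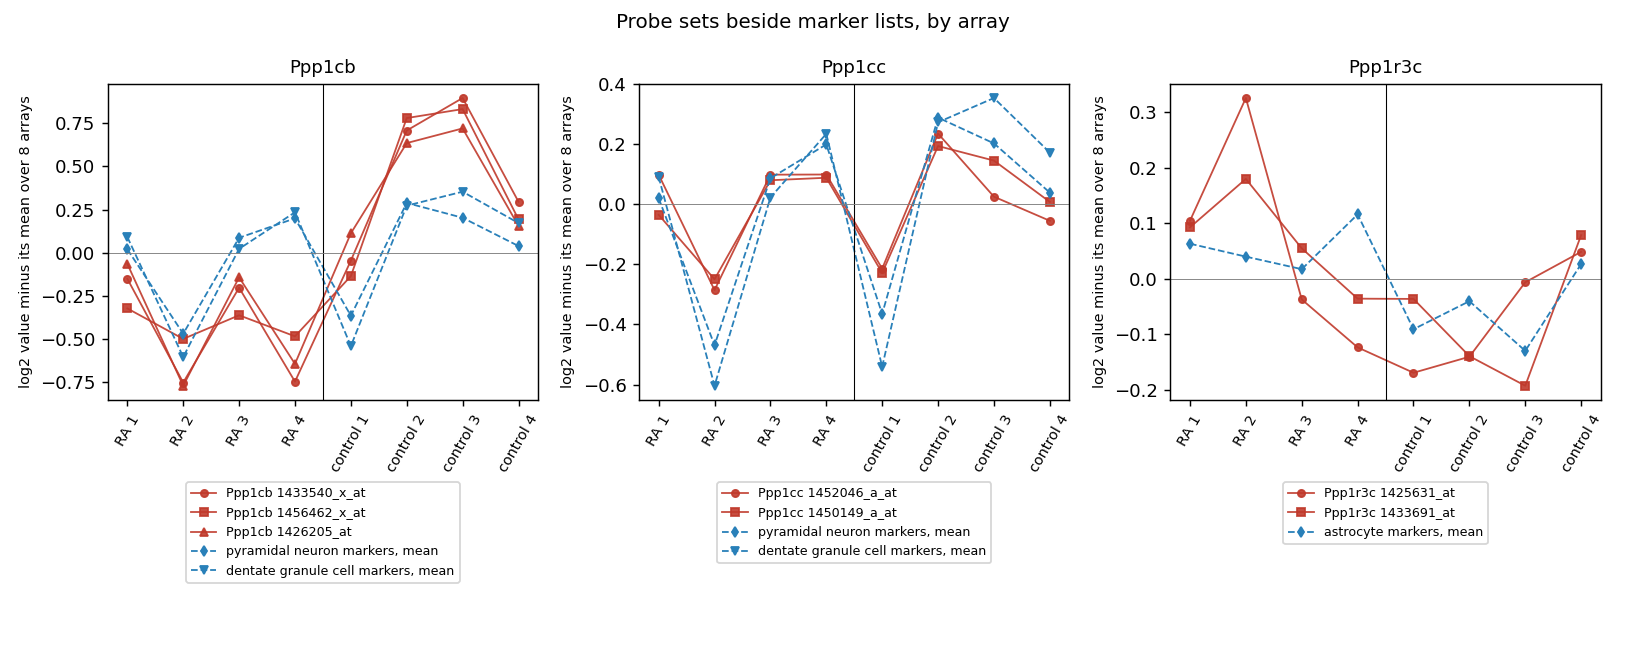
Log2 value minus its mean over 8 arrays (vertical axis) for each array (horizontal axis, RA left of the line, control right), for the measured probe sets of Ppp1cb, Ppp1cc and Ppp1r3c (red) and the mean of marker lists (blue, dashed). RA 2 and control 1 are the lowest arrays of their groups in Ppp1cb, Ppp1cc and both neuron lists, while RA 4 is low in Ppp1cb and high in these lists.

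Ppp1r3c, a subunit that brings PP1 to glycogen and activates glycogen synthase, was not called in either direction. Probe set 1433691_at stood at 8.78, 8.87, 8.75 and 8.66 in RA 1 to RA 4, against 8.66, 8.55, 8.50 and 8.77 in control 1 to control 4, a log2 fold change of 0.15 (standard error 0.0716). Probe set 1425631_at stood at 7.39, 7.61, 7.25 and 7.16 in RA 1 to RA 4, against 7.12, 7.15, 7.28 and 7.34 in control 1 to control 4, a log2 fold change of 0.13 (standard error 0.107). In both RA 2 was the highest array, RA 1 the next, and the groups overlapped. Both probe sets had r = 0.714 and rho = 0.738 (exact permutation p = 0.0415 and 0.0458, adjusted 0.0415 and 0.0458), and r was 0.574 without RA 2 and control 1. Without RA 2 the log2 fold change was 0.11 for 1433691_at and 0.048 for 1425631_at. Without control 4, 1433691_at was called higher (0.20).

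In the brain glycogen is stored mainly in astrocytes. All 7 astrocyte markers varied, beside 2496 of all 18193 genes, so the share of calls over all genes is not a like comparison. Of the 7 markers, 4 had a probe set called higher in the RA group, beside 306 of all 18193 genes. The mean over their 13 varying probe sets ran from 8.42 to 8.52 in the RA group and from 8.28 to 8.43 in the control group, with no full separation of the groups. Control 4 was the highest control array both for the mean of these markers and for both probe sets of Ppp1r3c. RA 4 was the highest RA array for the mean of the markers (8.52) and the lowest RA array for Ppp1r3c, at 8.66 and 7.16. The markers differed among themselves here. Among RA arrays, RA 4 was the highest in every varying probe set of Gfap. In every varying probe set of Gja1, Aqp4 and Aldoc, RA 2 was the highest and RA 4 the lowest, as in Ppp1r3c. In the other astrocyte markers RA 4 was at neither end. The part of astrocyte markers in the values of Ppp1r3c was not tested.

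The other 5 genes gave no measure of a difference. Ppp1ca, the alpha catalytic subunit, had 1 probe set, which held between 9.5447 and 9.5454 in the RA group and between 9.5451 and 9.5453 in the control group. Ppp1r1a, inhibitor-1, also had 1, and Ppp1r2, inhibitor-2, had 4. Ppp1r9a, which encodes neurabin, had 5, and Ppp1r12a, which encodes the myosin-targeting partner of the beta subunit, had 4. The SD of these 15 probe sets over the 8 arrays was at most 0.000441, and their log2 fold changes were at most 0.000328 in size. Such values are a property of the summary and do not show that these transcripts were equal in both groups.

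**Figure D4:**
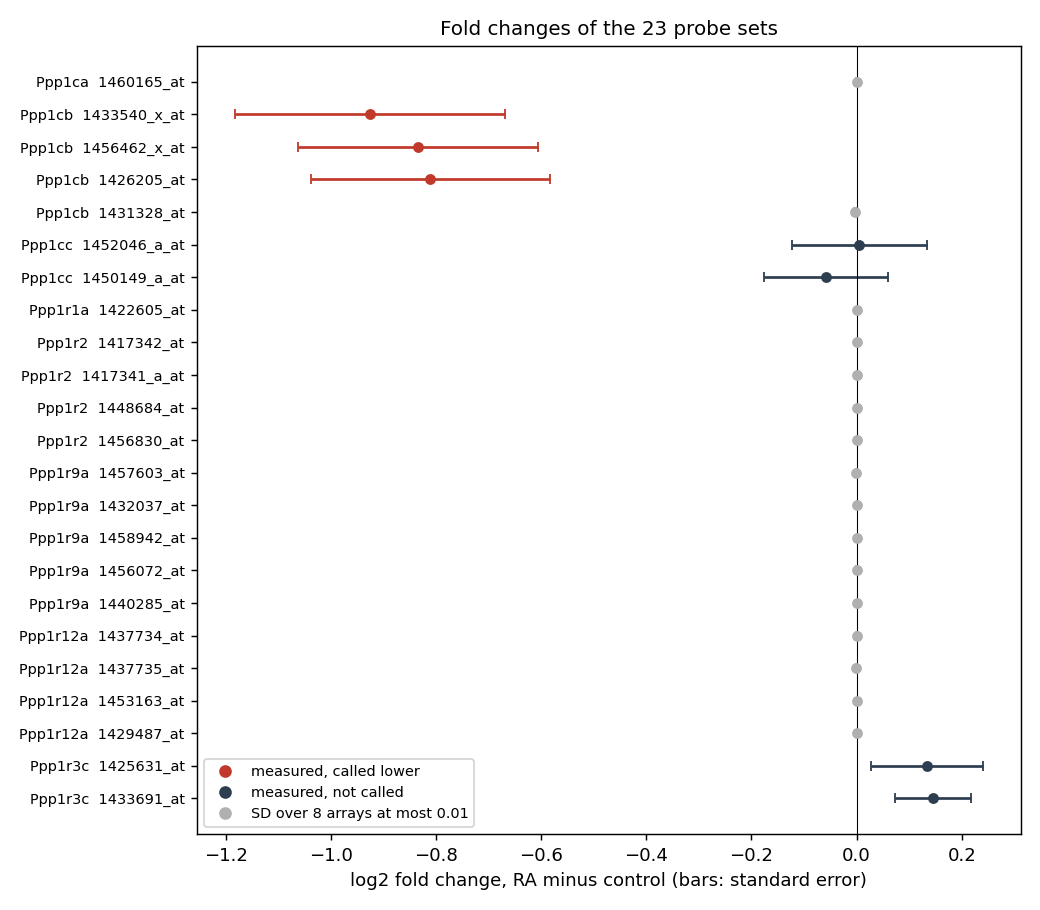
Log2 fold change (RA minus control, horizontal axis) of the 23 PP1 probe sets, with limma's standard error as bars: red, measured and called lower; dark blue, measured and not called; grey, unmeasured. The 3 red points of Ppp1cb lie between -0.93 and -0.81, the 4 dark blue points lie between -0.06 and 0.15, and all grey points lie within 0.00276 of 0.

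Of 41 further regulatory subunits and PP1-binding proteins, all had a probe set and 6 had a varying one. The rank product called 0 of the 41 lower and 0 higher, beside 202 and 306 of all 18193 genes. With 1 array left out, 1 of the 41 was called lower without RA 1 and 1 without RA 4, and 1 was called higher without control 1. The median log2 fold change of the 6 varying probe sets was 0.084, beside 0.069 over all varying probe sets. Ppp1r3e, another glycogen-targeting subunit, had a wide spread, from 5.33 to 6.91 in the RA group and from 5.48 to 6.80 in the control group, with a log2 fold change of -0.06 (standard error 0.466). Phactr3, which binds PP1 and actin, ran from 8.49 to 8.71 in the RA group and from 8.28 to 8.59 in the control group (0.13, standard error 0.0772). The remaining varying genes were Ppp1r12b, Ppp1r14a, Ppp1r16a and Ppp1r16b, with log2 fold changes from 0.02 to 0.18, and the groups overlapped in each.

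The catalytic subunits of the related phosphatases PP2A, PP4, PP5 and PP6 all had probe sets, and none of the 5 genes varied. Of 15 scaffold and regulatory genes of PP2A, 14 had a probe set, 3 varied and none was called, while without control 1 the number called higher was 1. Of 20 genes of glycogen metabolism, where Ppp1r3c acts, 19 had a probe set, 2 varied and none was called, and without control 1 the number called higher was again 1.

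Myosin light chains are the substrate of the complex of the beta subunit with Ppp1r12a. Of 16 genes of myosin light chain phosphorylation, 15 had a probe set, 6 varied, 1 was called higher and none lower. The one called was Myl9, a light chain of smooth muscle and non-muscle myosin. Its log2 values were 6.10, 7.37, 6.30 and 6.77 in RA 1 to RA 4, against 6.10, 6.08, 6.15 and 6.27 in control 1 to control 4, a log2 fold change of 0.49 (standard error 0.273). RA 2 and RA 4 were high and RA 1 lay among the control arrays. Without RA 2 the log2 fold change was 0.24 and without RA 4 it was 0.44, and the call was lost in both. Myl9 is also expressed in vessel walls and meninges. Over 6 varying probe sets of 5 of 6 meningeal fibroblast markers the mean ran from 6.48 to 7.31 in the RA group and from 6.42 to 6.78 in the control group, with RA 2 highest. The part of these cells in the value of Myl9 was not tested.

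Of 21 genes for synaptic substrates of PP1 and their partners in dendritic spines, 17 had a probe set, 10 varied, 1 was called lower and none higher. The number called higher was 2 without control 1 and 1 without control 2 or control 3. The one called was Gria2, an AMPA receptor subunit. Its probe set 1434146_at stood at 9.53, 9.34, 9.61 and 9.42 in RA 1 to RA 4, against 9.64, 9.95, 9.99 and 9.77 in control 1 to control 4, a log2 fold change of -0.36 (standard error 0.0964) with groups that did not overlap. A second measured probe set of Gria2, 1421970_a_at, overlapped between the groups, at 10.75 to 10.99 in the RA group and 10.78 to 10.98 in the control group (-0.03, standard error 0.0653). The probe sets of Gria2 therefore differed from each other, unlike the measured ones of Ppp1cb. Neither Gria2 nor Myl9 was called when the test was limited to varying probe sets.

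The genes most like Ppp1cb were sought by Pearson's r with 1433540_x_at over the 8 arrays after the group means had been taken out, among 3409 varying probe sets that name 1 gene. The highest values were those of Acbd5 (r = 0.983), Gnaq (0.980), Rufy3 (0.978), Impa1 (0.978) and Mef2a (0.977), each for 1 probe set. They are the top of 3409 values over 8 arrays and are given as a description. Gnaq encodes a G protein alpha subunit, Impa1 an inositol monophosphatase and Mef2a a transcription factor. The probe set of Gnaq stood at 8.71, 8.41, 8.71 and 8.45 in RA 1 to RA 4, against 8.81, 9.22, 9.21 and 8.92 in control 1 to control 4, a log2 fold change of -0.47 (standard error 0.127). As in Ppp1cb, RA 2 and RA 4 were the lowest arrays, control 1 was the lowest control array and the groups did not overlap. The log2 fold changes of the others were -0.26 for Rufy3, -0.30 for Impa1, -0.13 for Acbd5 and -0.19 for Mef2a, and in the last pair the groups overlapped. Gnaq was called lower by 1 of its 7 probe sets, of which 2 varied, Rufy3 by 1 of 6, of which 1 varied, and Impa1 by 1 of 3, of which 1 varied. Mef2a was called lower by 1 of 6, of which 3 varied, though not by the one compared here, and Acbd5 by none of 2, of which 1 varied.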

How the data were processed

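Gene expression was measured in hippocampal total RNA on Affymetrix mouse genome arrays. The authors summarised probe sets with FARMS in R, and the deposited values are on the log2 scale. How arrays were scaled to each other was not stated in the sources used here. After 64 manufacturer control probe sets were left out, 45037 were tested, of which 34945 name 1 gene of the platform annotation, with symbols updated to GRCm38.p6. Groups and array numbers follow the labels, and 4 arrays per group limit the precision. The rank product for 2 unpaired groups used 16 differences and 100 permutations within arrays (Python 3.11.15). limma 3.58.1 in R 4.3.3 gave fold changes and standard errors. Both were tested on simulated data with noise drawn independently for each probe set. Variation that probe sets share over the arrays was not simulated, so this does not show how the calls behave here. Probe sets with an SD of at most 0.01 were marked as unmeasured. Exact permutation tests were used for correlations. The members, lists and tests were chosen with earlier results of these data known. Named genes were the members, called genes of the lists and the 5 genes most like Ppp1cb. Ddx5, Serinc3 and the varying PP1 subunits were added after their values were seen. Alternatives were scaling, filters, leaving out arrays, a replicate block, other tests, a stricter threshold and the choice of probe set.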

Additional observations from a re-analysis of the deposited data

Results flagged for a closer look

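In the RA group, RA 2 lay far from the other arrays in probe set 1452046_a_at of Ppp1cc, at a log2 value of 8.31 where RA 1, RA 3 and RA 4 all stood at 8.69. This was the single group with an array far from the rest among the 14 groups of 4 arrays examined for the measured PP1 probe sets, and chance marks about 1 group in 20.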

How the results depend on the processing

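The 3 probe sets of Ppp1cb were called lower under both scalings, both filters, the stricter threshold of 0.01, each left-out array (3 to 3) and the rank product of same-numbered differences (replicate block). These calls are a description, since the gene was chosen for its values in these arrays. limma called 0 at an adjusted p under 0.05 among the PP1 probe sets and 0 among all, with 4 and 4553 at an unadjusted p under 0.05. limma with a replicate block and the methods' t-test also called 0, with 3 and 4 PP1 probe sets at an unadjusted p under 0.05. Ppp1cb relative to Ppp1cc on the same array, an alternative chosen after the data were seen, gave differences of -0.90 to -0.78, which the small difference of Ppp1cc fixes. The number of PP1 probe sets called higher was 0 to 1 with 1 array left out. The fold change of Ppp1cc, not called, ran from -0.14 to 0.015 for 1450149_a_at and from -0.066 to 0.10 for 1452046_a_at with 1 array left out, and was -0.00091 for the second under quantile normalization. The cause was not tested. Over all probe sets, 260 were called lower and 400 higher. The counts were 138 to 317 and 14 to 960 with 1 array left out, 156 and 27 at the threshold of 0.01, and 17 and 4 among varying probe sets. With means above the median 51 were called higher, and with the replicate block 82. Deviations of same-numbered arrays had correlations without a common sign (-0.12, -0.33, 0.45 and -0.39 for numbers 1 to 4). So few values do not settle whether the numbers pair the arrays. No depth is known for arrays, and probe sets near a constant limit what can be seen.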
